A study of Homo sapiens with 16 samples.

Results

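The cholesterol and fatty acid synthesis genes described here are 31 genes of sterol and lipid metabolism, taken by their symbol from a table of 57820 genes. All 31 passed the filter of at least 1 RPKM in 2 libraries (RPKM, reads divided by gene model length and library size), as did 18149 genes in all. The set holds 7 enzymes of the mevalonate pathway, 3 that carry its product to lanosterol, 9 that turn lanosterol into cholesterol, 5 regulators, 3 genes of sterol transport and 4 of fatty acid synthesis. RNA was sequenced from SK-OV-3, an established human ovarian carcinoma line. Control cells carried shScramble, a scrambled short hairpin RNA (shRNA). The others carried shPRMT1 #1, #3 or #5, hairpins of different sequence against PRMT1, the enzyme behind most asymmetric dimethylation of arginine in proteins. Each of these 4 populations was left untreated or kept in cisplatin, a drug that crosslinks DNA, at 20 µM for 24 h. Every group of the resulting 8 has 2 biological replicates, which makes 16 libraries, and the labels leave unsaid how replicate cultures were separated. The p-values therefore measure the spread between these samples, which may be technical. Values averaged over the hairpins rest on 6 libraries, which are 3 constructs with 2 replicates each. Their SE and p-values come from the spread between replicates within groups and leave out the spread between hairpins.

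Cholesterol is built from acetyl-CoA through mevalonate, isoprenoid units, squalene and lanosterol. The genes of this route are switched on together by SREBF2, a transcription factor held in the endoplasmic reticulum by SCAP and the INSIG proteins while sterols are plentiful. Its relative SREBF1 drives the genes of fatty acid synthesis, in which ACLY supplies acetyl-CoA, ACACA makes malonyl-CoA, FASN builds the chain and SCD puts in a double bond. When sterols are in excess, ABCA1 exports cholesterol from the cell.

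The libraries held 12289300 to 16039735 reads, and PRMT1 was lower in every shPRMT1 library (4.12 to 10.4 RPKM) than in every shScramble library (17.8 to 23.5 RPKM). The carcinoma markers KRT8, KRT18, KRT19, EPCAM, ERBB2 and PAX8 stood between 13.5 and 66.4 RPKM in all 16 libraries. Under cisplatin 0 of these 6 were called higher and 2 lower in shScramble, and 1 higher and 3 lower in shPRMT1, with median log2 differences of -0.41 and -0.23; their part in the results was not tested. Of the markers of other cells, PTPRC, CD3E, VWF and CDH5 stayed at or below 0.174 RPKM. Of the fibroblast genes, COL1A1, COL3A1 and LUM had lowest values of 3.15, 1.44 and 6.05 RPKM. DCN and PDGFRB stayed at or below 0.525 and 0.287 RPKM. CD14, a monocyte gene, ran from 0.0361 to 2.51 RPKM and CD79A, a B cell gene, from 0.0907 to 3.05 RPKM. Of the 5 markers of other cells that were tested, 0 were called higher and 1 lower under cisplatin in shScramble, and 2 higher and 3 lower in shPRMT1. The summed markers of other cells ran from 38.1 to 64.1 RPKM untreated and from 17.0 to 48.0 under cisplatin. COL1A1, COL3A1 and LUM hold most of this sum, here and below. The part of these markers in the results below was not tested. The replicates stood apart: in all 8 groups replicate 2 held more RNA of 10 of the 31 genes than replicate 1, and less of another 6. The numbers pair the samples in these data. Counts of each averaged comparison are therefore also given with that number as a block in the model (the replicate block). Not every gene whose call the block changes is named.

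The sequences upstream of these genes are shown because the members are known to share regulators that bind there. RefSeq windows on GRCh38.p14, from 250 bases before the start to 50 after it, were found for 27 of the 31 genes. Shown are those of 5 members with large decreases under cisplatin, chosen with these results known. That of SREBF2, which alone among the 27 holds the searched sterol element, is also shown. Every window shown holds a match to a searched motif. Not shown are SREBF1 and ACACA, which had the lowest differences of the set in shScramble and in shPRMT1, and LSS and TM7SF2. ACACA had windows with and without a match. Capitals mark matches, on either strand, to the sterol element TCACNCCAC, the E-box CACGTG or the CCAAT box (ATTGG when read on the opposite strand).
INSIG1, chr7:155297628-155297927, plus strand: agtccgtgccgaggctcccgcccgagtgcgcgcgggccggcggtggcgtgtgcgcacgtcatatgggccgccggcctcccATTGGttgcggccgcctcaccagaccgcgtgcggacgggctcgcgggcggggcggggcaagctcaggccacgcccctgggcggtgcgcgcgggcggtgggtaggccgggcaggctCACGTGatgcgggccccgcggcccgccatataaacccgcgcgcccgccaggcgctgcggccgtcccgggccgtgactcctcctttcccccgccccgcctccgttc
HSD17B7, chr1:162790452-162790751, plus strand: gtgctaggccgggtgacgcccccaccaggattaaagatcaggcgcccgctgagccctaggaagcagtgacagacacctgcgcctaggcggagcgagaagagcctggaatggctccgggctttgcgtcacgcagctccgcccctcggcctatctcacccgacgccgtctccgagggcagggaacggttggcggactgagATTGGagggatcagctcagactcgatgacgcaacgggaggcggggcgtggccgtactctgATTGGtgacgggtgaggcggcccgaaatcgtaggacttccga
SCD, chr10:100346983-100347282, plus strand: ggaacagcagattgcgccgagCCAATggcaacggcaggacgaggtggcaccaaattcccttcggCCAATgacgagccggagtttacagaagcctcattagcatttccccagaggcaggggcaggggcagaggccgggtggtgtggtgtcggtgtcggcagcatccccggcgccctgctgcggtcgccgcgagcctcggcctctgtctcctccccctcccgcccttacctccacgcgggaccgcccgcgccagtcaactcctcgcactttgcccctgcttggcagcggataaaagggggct
MVK, chr12:109573544-109573843, plus strand: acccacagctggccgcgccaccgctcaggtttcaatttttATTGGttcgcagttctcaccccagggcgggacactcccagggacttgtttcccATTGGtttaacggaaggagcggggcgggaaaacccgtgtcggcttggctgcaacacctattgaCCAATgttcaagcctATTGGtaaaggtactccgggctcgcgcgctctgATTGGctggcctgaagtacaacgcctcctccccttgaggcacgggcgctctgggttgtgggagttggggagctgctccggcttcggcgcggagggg
ABCA1, chr9:104928106-104928405, minus strand: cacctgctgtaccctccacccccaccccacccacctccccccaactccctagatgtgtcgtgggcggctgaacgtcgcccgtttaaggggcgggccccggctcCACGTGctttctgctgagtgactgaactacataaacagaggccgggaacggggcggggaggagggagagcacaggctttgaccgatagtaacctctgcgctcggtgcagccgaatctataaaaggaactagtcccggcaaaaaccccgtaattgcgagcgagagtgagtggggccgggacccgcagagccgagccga
SREBF2, chr22:41832855-41833154, plus strand: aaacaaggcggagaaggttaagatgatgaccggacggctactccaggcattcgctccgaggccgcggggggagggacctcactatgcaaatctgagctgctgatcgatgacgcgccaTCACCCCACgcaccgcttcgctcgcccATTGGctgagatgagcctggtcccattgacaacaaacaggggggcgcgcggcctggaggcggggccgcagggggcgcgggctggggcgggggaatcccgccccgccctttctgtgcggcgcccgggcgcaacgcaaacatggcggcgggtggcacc
The CCAAT box was present in 19 of the 27 members (70.4%) and in 39.7% of the 27305 genes with a window. The E-box was in 5 members, INSIG1, LSS, SC5D, SCAP and ABCA1 (18.5%), against 8.77% of all genes. The sterol element was in 1 member (3.70%) and in 1.39% of all genes. MVK held 5 CCAAT boxes in its window, SCD and HSD17B7 held 2 each, and the window of SREBF1 held none of the searched motifs. These are matches of letters in a short window and no measure of binding.

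Under cisplatin every gene of the set that passed the test fell, among them the regulators INSIG1 and SREBF1, the squalene enzymes SQLE and FDFT1, and ACACA and SCD of fatty acid synthesis. In shScramble cells 6 of the 31 genes (19.4%) fell and 0 rose (limma on log2(RPKM + 1), Benjamini-Hochberg adjusted p under 0.05), while 14.7% of all tested genes fell and 15.5% rose. In the other direction 1 gene passed an unadjusted p under 0.05, and limma's voom on the recovered reads also called 0 higher. Across the shPRMT1 hairpins 15 genes (48.4%) fell and 0 rose, while 23.6% of all tested genes fell and 30.4% rose. There 0 genes passed an unadjusted p in the upward direction, and voom called 0. The median log2 difference of the 31 genes was -0.26 in shScramble and -0.22 in shPRMT1 cells, and that of all tested genes was -0.01 and 0.04. With the replicate number as a block the counts were 2 higher (INSIG2 and STARD4) and 14 lower in shScramble, and 1 higher (NPC1) and 21 lower in shPRMT1. The block also raised the counts over all 18149 tested genes, to 4137 higher and 3870 lower in shScramble and to 6657 higher and 5257 lower in shPRMT1. Setting each treated library against the untreated library of the same hairpin and number, 17 of the 31 genes were lower under cisplatin in 8 of 8 pairs. The log2 difference was negative within replicate 1 for 24 and within replicate 2 for 26 of the 31 genes in shScramble, and for 28 and 24 in shPRMT1. These counts of pairs and of negative differences were not made over all tested genes, so no background stands beside them. Without the block, the share called lower was near the background in shScramble and above it in shPRMT1. With the block it was above the background in both populations. In shScramble 14 of 31 genes stood beside 3870 of 18149, and in shPRMT1 21 of 31 beside 5257 of 18149. The shScramble test rests on 2 libraries against 2, the shPRMT1 test on 6 against 6. In bulk RNA, fewer cells of a kind and less RNA per cell cannot be told apart.

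**Figure D1:**
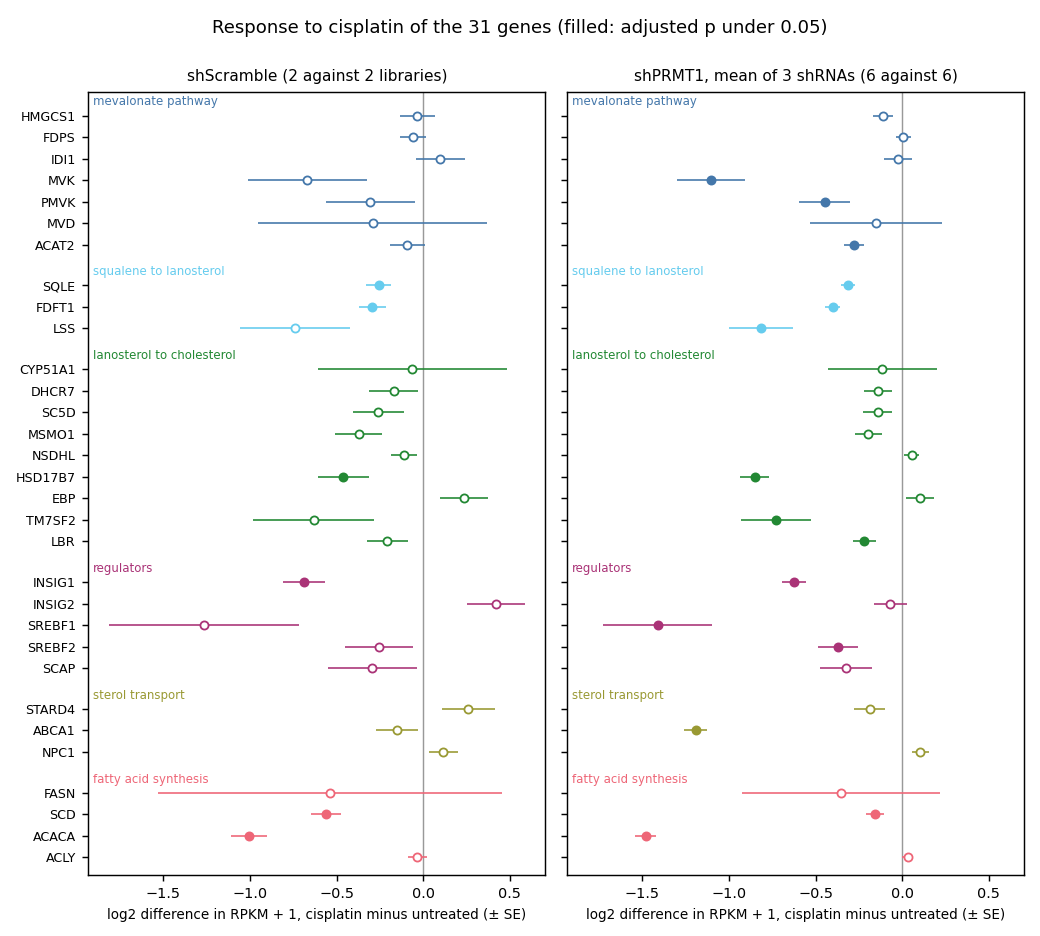
Log2 difference in RPKM + 1 between cisplatin and untreated cells for each of the 31 genes (points, with standard error bars), grouped by role, in shScramble (left) and as the mean over the shPRMT1 hairpins (right). Filled points have an adjusted p under 0.05: all 6 on the left and all 15 on the right lie below 0.

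Of the 5 regulators, INSIG1 fell in both populations and SREBF1 and SREBF2 in shPRMT1. Of all tested genes 14.7% fell in shScramble and 23.6% in shPRMT1. Counts by role, here and below, were not tested against those shares. INSIG1, which retains SCAP in the endoplasmic reticulum and is itself a target of the SREBF factors, lies on GRCh37 chromosome 7 from 155089486 to 155101945 (ENSG00000186480.8, plus strand). In shScramble it measured 25.6 and 25.02 RPKM untreated and 16.17 and 14.5 RPKM under cisplatin. In untreated shPRMT1 cells its lowest, median and highest values were 19.7, 30.5 and 34.1 RPKM, and under cisplatin 15.9, 17.6 and 21.0 RPKM. Treated and untreated libraries did not overlap in shScramble, and within each hairpin both treated libraries were below both untreated ones. INSIG1 fell in shScramble (log2 difference -0.69, SE 0.12, limma adjusted p = 0.0014) and in shPRMT1 (-0.62, SE 0.07, adjusted p = 2e-05), and it was called lower with each hairpin alone.

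INSIG2, the relative of INSIG1 that is not driven in the same way by SREBF factors, stood higher under cisplatin in shScramble, at 19.9 and 18.5 RPKM against 15.3 and 13.0 RPKM untreated. In shPRMT1 cells its median was 12.6 RPKM untreated and 11.6 RPKM under cisplatin, with ranges of 9.71 to 15.5 and 9.53 to 16.5. The groups did not overlap in shScramble and overlapped widely in shPRMT1. The shScramble difference of 0.42 (SE 0.17) was not called by limma (adjusted p = 0.086), while under the replicate block it was (adjusted p = 0.00047). In shPRMT1 the difference was -0.07 (SE 0.10, adjusted p = 0.58).

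SREBF1 showed the lowest log2 difference of the regulators (GRCh37 chromosome 17, 17713713 to 17740325, minus strand, ENSG00000072310.12). In shScramble replicate 1 it went from 7.26 RPKM untreated to 2.75 RPKM under cisplatin, and in replicate 2 from 13.1 to 4.37 RPKM. In shPRMT1 cells it ran from 2.88 to 9.53 RPKM untreated (median 6.61) and from 0.716 to 3.23 RPKM under cisplatin (median 1.54). Each treated library lay below its untreated partner, by 1.11 to 1.79 on the log2 scale. The spread between replicates was wide, so the shScramble difference of -1.27 (SE 0.55) missed the threshold (adjusted p = 0.11), and with the block it passed (adjusted p = 0.00064). In shPRMT1 cells SREBF1 fell by 1.41 (SE 0.32, adjusted p = 0.003). The table's gene model of SREBF1 overlaps RAI1, and the library kit does not mark strand.

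SREBF2, the main activator of sterol synthesis, measured 37.1 ± 4.36 RPKM untreated and 30.9 ± 1.1 under cisplatin in shScramble (SD, n = 2). It fell in shPRMT1 (-0.37, SE 0.11, adjusted p = 0.017), where the means were 35.3 ± 3.69 and 27.5 ± 5.64 RPKM (SD, n = 6); without the untreated replicate 2 of #1 its adjusted p was 0.0503. SCAP, the escort of both factors to the Golgi, had a difference of -0.32 (SE 0.15) in shPRMT1 that missed the threshold (adjusted p = 0.091) and was called with the block (adjusted p = 0.00098).

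**Figure D2:**
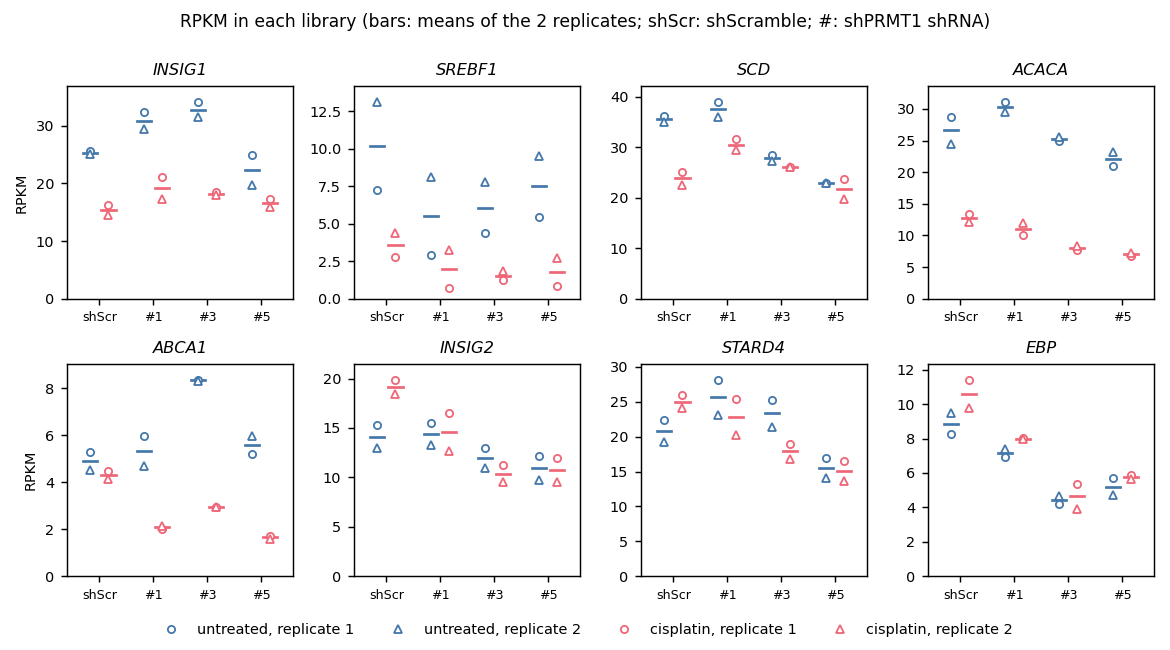
RPKM of 8 genes in every library, for shScramble (shScr) and the shPRMT1 hairpins #1, #3 and #5, untreated (blue) and under cisplatin (red). Circles are replicate 1, triangles replicate 2 and bars their mean; INSIG1, SREBF1 and ACACA are lower under cisplatin in all 4 populations, and ABCA1 under cisplatin lies between 1.59 and 2.96 RPKM with the hairpins and at 4.15 and 4.46 RPKM in shScramble.

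Of the 7 genes of the mevalonate pathway, MVK, PMVK and ACAT2 fell in shPRMT1 cells, where 23.6% of all tested genes fell. In shScramble 0 were called and 0 passed an unadjusted p under 0.05, while 14.7% of all tested genes fell. MVK, mevalonate kinase, had 6.28 and 10.3 RPKM untreated and 4.29 and 5.17 RPKM under cisplatin in shScramble. In shPRMT1 it ran from 6.92 to 10.7 RPKM untreated and from 2.33 to 5.22 RPKM under cisplatin, without overlap. Its difference was -0.67 (SE 0.34, adjusted p = 0.17) in shScramble, called with the block (adjusted p = 0.012), and -1.10 (SE 0.20, adjusted p = 0.00067) in shPRMT1. PMVK, phosphomevalonate kinase, fell by 0.45 in shPRMT1 (SE 0.15, adjusted p = 0.025); without 1 of 6 single libraries its adjusted p was 0.065 to 0.072. ACAT2, the thiolase at the head of the route, fell there by 0.28 (SE 0.06, adjusted p = 0.0018); its annotated span shares 11.7% with SOD2 on the opposite strand. HMGCS1, HMG-CoA synthase, was near level: 45.3 and 45.3 RPKM untreated and 44.9 and 43.5 RPKM under cisplatin in shScramble, with differences of -0.03 (SE 0.10) and, in shPRMT1, -0.11 (SE 0.06, adjusted p = 0.14; with the block 0.016). FDPS, which joins isoprenoid units, and IDI1, which isomerises them, had shPRMT1 differences of 0.00 and -0.02.

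The 3 genes from squalene to lanosterol fell in shPRMT1 cells, where 23.6% of all tested genes fell. FDFT1, squalene synthase, measured 33.8 and 35.3 RPKM untreated and 29.1 and 26.9 RPKM under cisplatin in shScramble. It fell in both populations, by 0.29 (SE 0.08, adjusted p = 0.014) and 0.40 (SE 0.04, adjusted p = 1.9e-05). SQLE, squalene epoxidase, fell by 0.26 (SE 0.07, adjusted p = 0.019) and 0.31 (SE 0.04, adjusted p = 7.1e-05). LSS, lanosterol synthase, had the lowest difference of the 3, -0.74 in shScramble (SE 0.32, adjusted p = 0.11; with the block 0.0054) and -0.81 in shPRMT1 (SE 0.18, adjusted p = 0.0031). Without the untreated or the cisplatin replicate 2 of shScramble the FDFT1 call ended there (adjusted p = 0.089 and 0.112), as did that of SQLE (0.111 and 0.113). The SQLE call also ended without the cisplatin replicate 1 (adjusted p = 0.052). In shScramble the values of LSS were 19.7 and 25.2 RPKM untreated and 11.8 and 14.3 RPKM under cisplatin.

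Among the 9 genes from lanosterol to cholesterol, 1 fell in shScramble and 3 in shPRMT1, where 14.7% and 23.6% of all tested genes fell. HSD17B7, a ketosteroid reductase that takes part in removing methyl groups from the sterol ring, was low throughout. It had 2.49 and 2.01 RPKM untreated and 1.5 and 1.22 under cisplatin in shScramble, and in shPRMT1 2.21 to 3.30 untreated and 0.676 to 1.21 treated. No treated library reached an untreated one in either population, and HSD17B7 fell by 0.46 (SE 0.15, adjusted p = 0.037) and 0.85 (SE 0.09, adjusted p = 9.2e-06). The shScramble call ended when any of its 4 libraries was left out (adjusted p of 0.052 to 0.202). Its near copy HSD17B7P2 was listed at 1.03 to 3.95 RPKM, so how reads were divided between these genes is uncertain. TM7SF2 and LBR, sterol reductases of the same step, fell in shPRMT1 by 0.73 (SE 0.20, adjusted p = 0.01) and 0.22 (SE 0.07, adjusted p = 0.017); without the untreated replicate 1 of #3 the adjusted p of LBR was 0.052. The others were not called in either population: MSMO1 stood at -0.37 and -0.20, SC5D at -0.26 and -0.14, DHCR7 at -0.17 and -0.14, NSDHL at -0.11 and 0.05, and EBP at 0.23 and 0.10 on the log2 scale. With the block MSMO1 and SC5D were called lower in both populations and DHCR7 in shPRMT1. CYP51A1 was listed at only 0.428 to 2.18 RPKM, and 99.97% of its span is shared with LRRD1 on the same strand, so its values are uncertain.

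In fatty acid synthesis ACACA and SCD fell and ACLY and FASN did not pass the test. ACACA, acetyl-CoA carboxylase (GRCh37 chromosome 17, 35441923 to 35766909, minus strand, ENSG00000132142.15), had 28.7 and 24.5 RPKM untreated and 13.4 and 12.1 RPKM under cisplatin in shScramble. In shPRMT1 its lowest, median and highest values were 21.1, 25.2 and 31.1 RPKM untreated and 6.83, 8.07 and 12 RPKM treated. The treated and untreated libraries did not overlap in either population. The log2 difference was -1.0 (SE 0.10, adjusted p = 4.5e-05) in shScramble and -1.48 (SE 0.06, adjusted p = 1.2e-08) in shPRMT1.

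SCD, the stearoyl-CoA desaturase, had 36.3 and 34.95 RPKM untreated and 25.1 and 22.6 RPKM under cisplatin in shScramble, a fall of 0.56 (SE 0.09, adjusted p = 0.00074). In shPRMT1 the means were 29.5 ± 6.69 and 26.1 ± 4.19 RPKM (SD, n = 6), and SCD fell by 0.16 (SE 0.05, adjusted p = 0.024). Leaving out 1 of 5 single libraries ended that call (adjusted p of 0.052 to 0.063). With hairpin #1 alone it fell by 0.29, while #3 and #5 had differences of -0.10 and -0.08 that were not called. ACLY was the highest of the 31 genes by median RPKM over all libraries (57.9) and differed by -0.03 and 0.03. FASN had the widest replicate spread of the set: it measured 16.01 and 40.4 RPKM untreated and 10.6 and 27.7 RPKM under cisplatin in shScramble. Within shScramble replicates its difference was -0.55 and -0.53, and within shPRMT1 replicates -0.57 and -0.14.

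Of the sterol transport genes, ABCA1 fell in shPRMT1 cells, and STARD4 and NPC1 were not called in either population. ABCA1 (GRCh37 chromosome 9, 107543283 to 107690518, minus strand, ENSG00000165029.11) measured 5.30 and 4.51 RPKM untreated and 4.46 and 4.15 RPKM under cisplatin in shScramble. With shPRMT1 #1 it went from 5.96 and 4.69 RPKM to 2.003 and 2.15, with #3 from 8.36 and 8.29 to 2.96 and 2.96, and with #5 from 5.19 and 5.98 to 1.71 and 1.59. All 6 treated shPRMT1 libraries lay below every untreated library and below both treated shScramble libraries. The difference was -0.15 (SE 0.12, adjusted p = 0.39) in shScramble and -1.19 (SE 0.07, adjusted p = 1.4e-07) in shPRMT1. STARD4, a carrier of sterol between membranes, stood at 25.04 ± 1.32 RPKM under cisplatin and 20.8 ± 2.18 untreated in shScramble (SD, n = 2; difference 0.26, adjusted p = 0.25; with the block 0.0037). NPC1, which releases cholesterol from lysosomes, differed by 0.11 and 0.10 and was not called; C18orf8 on the opposite strand shares 31.7% of its span.

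The difference between the cisplatin responses of shPRMT1 and shScramble cells was then tested directly. It was called for 3 of the 31 genes, 1 higher and 2 lower, while 2.08% of all tested genes were called higher and 3.11% lower. ABCA1 had the strongest difference, -1.04 (SE 0.14, limma adjusted p = 0.003), and it was -1.01 within replicate 1 and -1.07 within replicate 2. ACACA fell further in shPRMT1 (-0.48, SE 0.12, adjusted p = 0.0497) and SCD fell less (0.41, SE 0.10, adjusted p = 0.048). The last 2 calls sit at the threshold and were lost when the libraries were rescaled by median of ratios (adjusted p = 0.057 for ACACA and 0.12 for SCD). Without the shScramble untreated replicate 2 they stood at an adjusted p of 0.255 for ACACA and 0.152 for SCD. The block called 1 gene higher and 4 lower, where it called 1125 of all tested genes higher and 1412 lower, adding INSIG2 (-0.49, adjusted p = 0.0029 against 0.2 without the block) and STARD4 (-0.45, adjusted p = 0.0022 against 0.2). The median over the 31 genes was -0.07, and 0.02 over all tested genes; without the shScramble untreated replicate 1 the members' median was 0.04. It was -0.20 within replicate 1 and 0.02 within replicate 2, so the set as a whole showed no shift that held in both replicates.

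Averaged over the hairpins, untreated shPRMT1 cells had lower EBP and SCD and higher LBR than shScramble. Without either shScramble untreated library these calls were lost, in fits that leave 1 library in that group. Calls over all tested genes also became fewer in those fits. In untreated cells 1 of the 31 genes was higher and 2 were lower, where 4.41% of all tested genes were higher and 3.83% lower. EBP, the sterol isomerase, measured 8.26 and 9.46 RPKM in shScramble and 4.20 to 7.40 RPKM in the 6 shPRMT1 libraries, without overlap, and was lower by 0.60 (SE 0.11, limma adjusted p = 0.01). Without the shScramble replicate 1 its adjusted p was 0.052, and without replicate 2 it was 0.149. SCD was lower (-0.29, SE 0.07, adjusted p = 0.032) and LBR higher (0.36, SE 0.10, adjusted p = 0.043), and both calls were lost under median-of-ratios scaling (adjusted p = 0.053 and 0.063). The hairpins differed: SCD measured 38.99 and 36.01 RPKM with #1, beside 36.3 and 34.95 RPKM in shScramble, a log2 difference of 0.07 that was not called, while it was called lower with #3 (-0.34) and #5 (-0.61). EBP was called lower with #3 and #5, and LBR was called higher with #3. The block gave 4 higher and 5 lower of the 31 genes, and 1939 higher and 1749 lower of all tested genes, adding DHCR7, MSMO1 and ABCA1 as higher and INSIG2, SC5D and SREBF1 as lower.

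Under cisplatin 4 of the 31 genes were higher and 5 lower in shPRMT1 than in shScramble, where 10.4% of all tested genes were higher and 9.36% lower. EBP was lower again, with 9.77 and 11.4 RPKM in shScramble and 3.89 to 8.02 RPKM in shPRMT1 (-0.73, SE 0.11, adjusted p = 0.0017). ABCA1 (-0.74, SE 0.10, adjusted p = 0.00072), INSIG2 (-0.67, SE 0.14, adjusted p = 0.0069), ACACA (-0.52, SE 0.09, adjusted p = 0.0022) and STARD4 (-0.43, SE 0.13, adjusted p = 0.035) were the other lower genes. STARD4 overlapped, at 24.1 and 26.0 RPKM in shScramble and 13.7 to 25.4 RPKM in shPRMT1, and INSIG2 did not, at 18.5 and 19.9 against 9.53 to 16.5 RPKM. DHCR7 (0.38), MSMO1 (0.38), LBR (0.35) and NSDHL (0.21), enzymes of the late cholesterol steps, were the higher genes, and all 4 calls were lost under median-of-ratios scaling (adjusted p of 0.063 to 0.085). That scaling turned the split among all tested genes from 1894 higher and 1699 lower to 1410 higher and 1954 lower. The summed markers of other cells were also higher under cisplatin in shPRMT1 libraries (21.7 to 48.0 RPKM) than in shScramble (17.0 to 20.2 RPKM), and their part in these values was not tested. Of the 5 tested markers of other cells, 3 were called higher and 0 lower in this comparison. Without the shScramble cisplatin replicate 1, which leaves 1 library in that group, calls became fewer among the 31 genes and over all tested genes. The block gave 5 higher and 7 lower, where it called 3287 of all tested genes higher and 3001 lower.

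The 3 hairpins are compared with the same 2 shScramble libraries in each condition, so their values are only set side by side. In untreated cells #1 gave 0 higher and 0 lower of the 31 genes (9 and 1 at an unadjusted p under 0.05), with 4.43% and 4.66% of all tested genes called. Hairpin #3 gave 2 higher and 2 lower against 4.15% and 3.93%, and #5 gave 0 higher (1 at an unadjusted p under 0.05) and 5 lower against 6.91% and 6.51%. The 5 genes lower with #5 were IDI1 (-0.50), SC5D (-0.66), EBP (-0.67), SCD (-0.61) and ACLY (-0.37). The summed markers of other cells were also highest with #5 untreated, at 61.3 to 64.1 RPKM against 38.1 to 49.3 in shScramble, 42.2 to 54.6 with #1 and 38.2 to 47.4 with #3, and their part in these values was not tested. SC5D, the sterol desaturase, measured 20.6 and 17.1 RPKM with #5, 35.5 and 31.8 with #3, and 30.4 and 30.01 in shScramble. ACLY measured 43.7 and 44.6 RPKM with #5, 59.5 and 61.2 with #3, and 57.1 and 57.7 in shScramble. The 2 genes higher with #3 were ABCA1 (0.66, adjusted p = 0.0072) and LBR (0.51, adjusted p = 0.024).

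Under cisplatin #1 gave 2 higher and 1 lower of the 31 genes, with 4.99% and 5.92% of all tested genes called, #3 gave 2 and 4 against 7.04% and 6.84%, and #5 gave 1 and 7 against 12.1% and 10.4%. ABCA1 was lower with all 3 hairpins, by 0.79, 0.42 and 1.0 for #1, #3 and #5. EBP, INSIG2 and ACACA were lower with #3 (-1.05, -0.83 and -0.60) and #5 (-0.77, -0.79 and -0.78). With #1 their differences of -0.36, -0.39 and -0.19 were not called. The response to cisplatin was called lower for 9, 7 and 8 of the 31 genes with #1, #3 and #5, and higher for 0 with each hairpin, also 0 at an unadjusted p under 0.05. The shares of all tested genes called lower were 13.9%, 17% and 16.8%, and those called higher 15.8%, 19.1% and 19.3%. INSIG1, SQLE, FDFT1, HSD17B7, MVK, ACACA and ABCA1 were called lower under cisplatin with every hairpin.

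**Figure D3:**
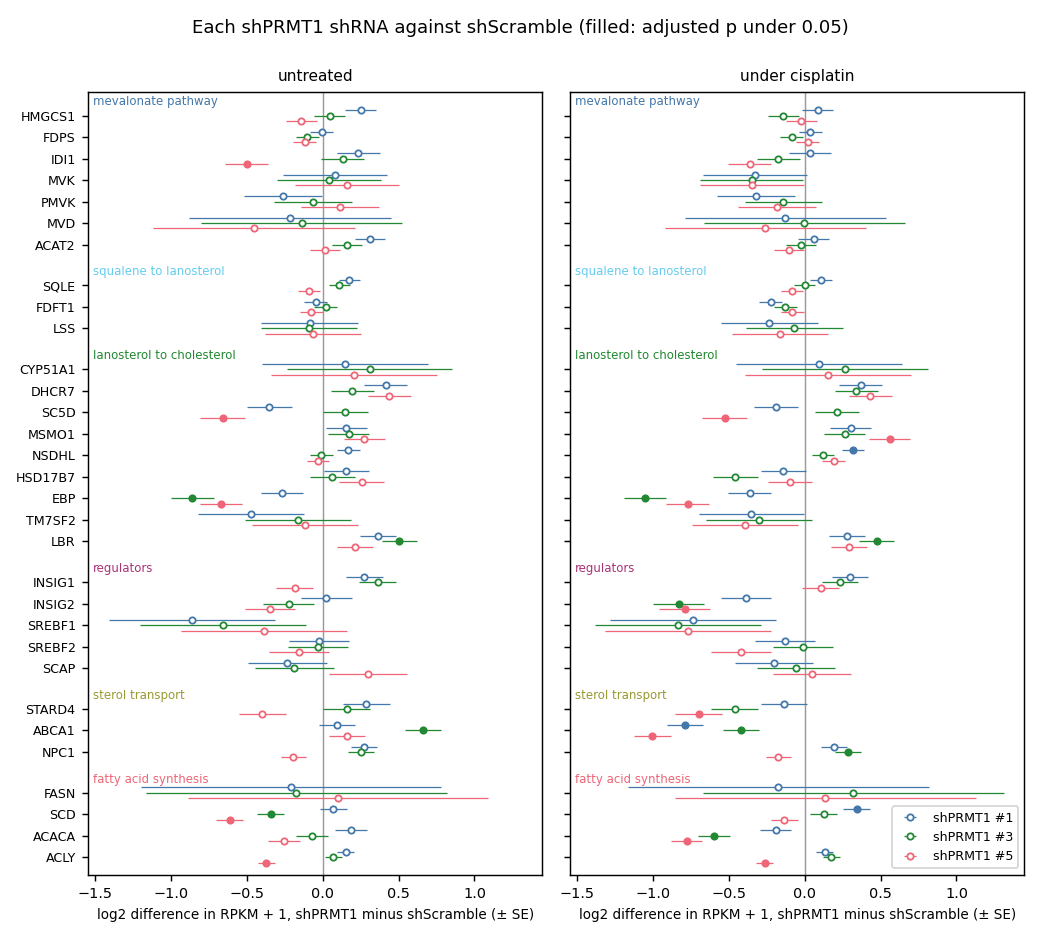
Log2 difference in RPKM + 1 between each shPRMT1 hairpin and shScramble for the 31 genes (points, with standard error bars), untreated (left) and under cisplatin (right), filled where the adjusted p is under 0.05. Under cisplatin ABCA1 is filled for all 3 hairpins and INSIG2, EBP and ACACA for #3 and #5.

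The split between replicate numbers ran along the base composition of the transcripts. LSS, CYP51A1, TM7SF2, MVK, PMVK, MVD, SREBF1, SREBF2, SCAP and FASN were higher in replicate 2 in 8 of 8 groups. FASN differed by 0.90 to 2.54 on the log2 scale, MVD by 0.52 to 1.63 and SREBF1 by 0.33 to 1.30. HMGCS1, INSIG1, INSIG2, IDI1, STARD4 and SCD were higher in replicate 1 in 8 of 8 groups. The transcripts of the former held 41.5 to 65.3% GC and those of the latter 34.2 to 47.1%. Across the 30 members with a matched transcript the replicate difference and GC content had a Pearson r of 0.70, and across 17484 tested genes 0.72. These points share the same libraries, and genes are not independent replicates. Each cisplatin group and each untreated group holds both replicate numbers.

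**Figure D4:**
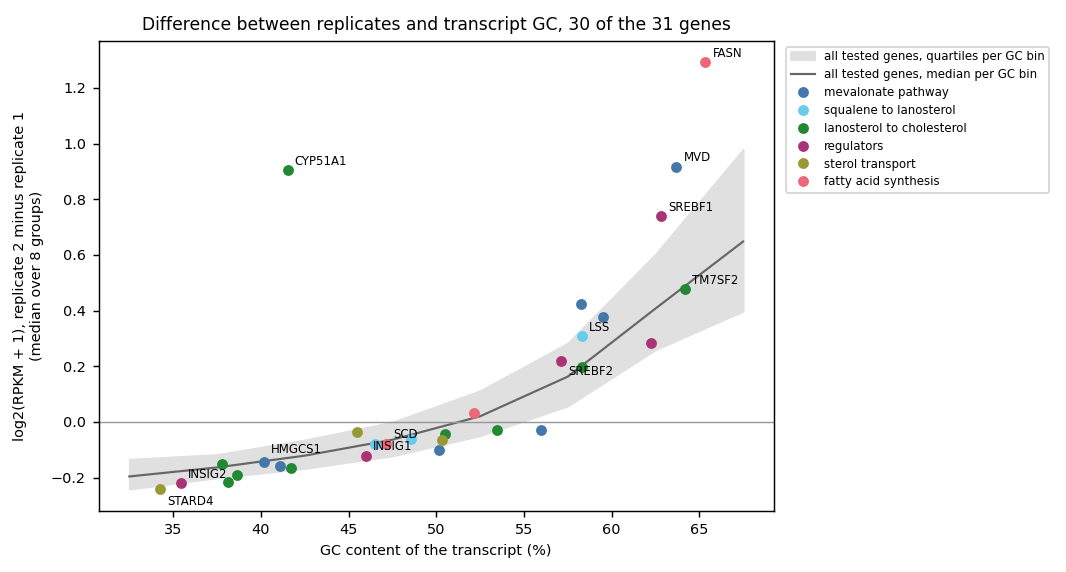
Median over the 8 groups of the difference in log2(RPKM + 1) between replicate 2 and replicate 1, against transcript GC content in percent, for 30 of the 31 genes (points, coloured by role) and for all tested genes (line, median; band, quartiles in bins of GC). FASN, MVD and SREBF1 lie at the GC-rich end and above 0.7, and CYP51A1 lies far above the genes of its GC content.

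ACACA and ABCA1 are also the longest genes of the set, at 325 and 147 kb, and long genes were lower under cisplatin throughout the table. The 300 tested genes within 1.2 times the span of ACACA had a median log2 difference of -0.59 in shScramble and -0.94 in shPRMT1, beside -1.0 and -1.48 for ACACA. The 811 genes within the same ratio of ABCA1 had medians of -0.14 and -0.29, beside -0.15 and -1.19 for ABCA1. For SREBF1, which spans 26.6 kb, genes of like span had medians of 0.06 and 0.10, beside -1.27 and -1.41. For INSIG1, at 12.5 kb, they had 0.08 and 0.15, beside -0.69 and -0.62. SREBF1 and INSIG1 stood below the median of their span in both populations, while in shScramble ABCA1 stood close to that of its span. These are descriptions with no test, and the part of span in the difference between responses was not tested.

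**Figure D5:**
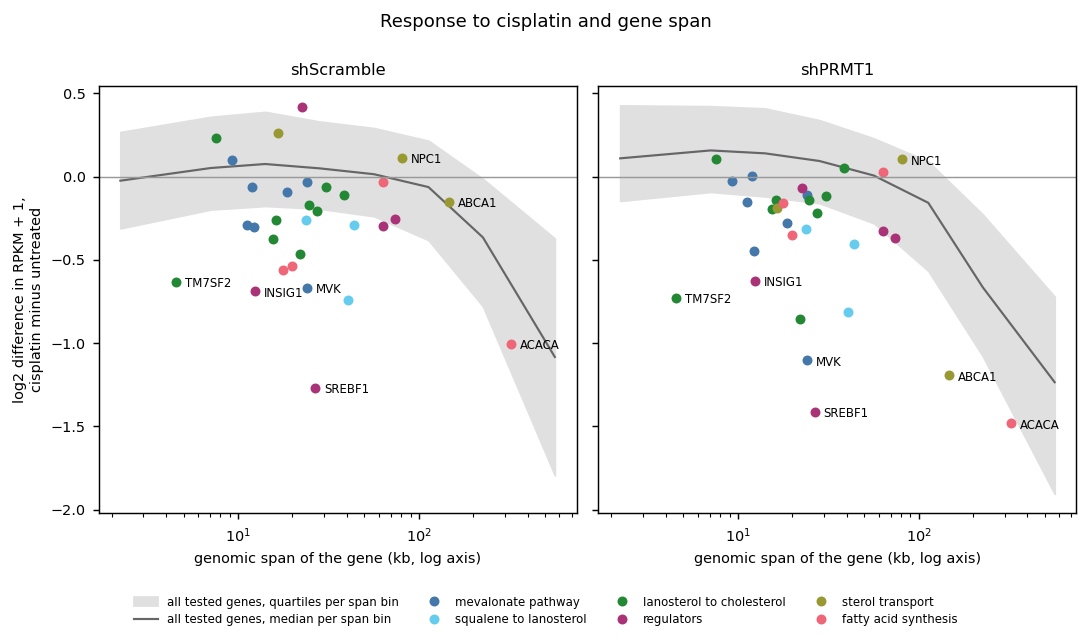
Log2 difference in RPKM + 1 between cisplatin and untreated cells against the genomic span of the gene in kb (log axis), for the 31 genes (points, coloured by role) and all tested genes (line, median; band, quartiles in bins of span), in shScramble (left) and shPRMT1 (right). ABCA1 sits on the line on the left at -0.15 and well below it on the right at -1.19.

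In neighbouring pathways genes moved both ways under cisplatin. Gene span was not set beside the values of these lists, and its part in them was not tested. Of 24 genes of fatty acid activation, elongation and desaturation, 3 rose and 4 fell under cisplatin in shScramble, and 4 rose and 6 fell in shPRMT1, with medians of 0.04 and -0.06. These are 12.5% and 16.7% of the list in shScramble, where 15.5% and 14.7% of all tested genes rose and fell, and 16.7% and 25% in shPRMT1, against 30.4% and 23.6%. ELOVL6, which lengthens saturated chains, fell from 5.64 and 5.33 RPKM to 1.64 and 1.14 RPKM in shScramble (-1.45, SE 0.13, adjusted p = 1.5e-05) and by 1.63 in shPRMT1. ELOVL4, which makes very long chains, rose from 12.2 and 10.4 RPKM to 31.7 and 30.8 RPKM in shScramble (1.40, SE 0.14, adjusted p = 4.3e-05) and by 1.11 in shPRMT1. ACACB, the mitochondrial carboxylase, fell by 0.44 and 0.87.

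Of 24 genes of sterol sensing, uptake, storage and efflux, 22 were tested. Under cisplatin 3 rose and 5 fell in shScramble, and 7 rose and 5 fell in shPRMT1, with medians of -0.03 and 0.04. Beside the same shares of all tested genes, these are 13.6% and 22.7% of the tested list in shScramble and 31.8% and 22.7% in shPRMT1. MYLIP, a ubiquitin ligase that degrades lipoprotein receptors and, like ABCA1, a known target of the sterol receptors LXR, rose from 18.7 and 16.9 RPKM to 26.9 and 27.0 RPKM in shScramble (0.58, SE 0.08, adjusted p = 0.00029). It rose by 1.04 in shPRMT1, and the difference between responses was 0.47 (SE 0.09, adjusted p = 0.017), opposite in sign to that of ABCA1. A part of LXR in either gene's values was not tested. VLDLR, a lipoprotein receptor, fell from 7.86 and 6.78 RPKM to 3.45 and 3.04 RPKM in shScramble (-0.97, SE 0.11, adjusted p = 8.4e-05) and by 1.05 in shPRMT1.

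Of 16 genes of the isoprenoid branch and prenylation, 6 rose and 2 fell under cisplatin in shScramble, and 8 rose and 2 fell in shPRMT1, with medians of 0.14 and 0.14. These are 37.5% and 12.5% of the list in shScramble, where 15.5% and 14.7% of all tested genes rose and fell. In shPRMT1 they are 50% and 12.5%, against 30.4% and 23.6%. PDSS2, a subunit of the enzyme that makes the coenzyme Q side chain, fell from 13.6 and 11.6 RPKM to 2.07 and 1.52 RPKM in shScramble (-2.29, SE 0.13, adjusted p = 8.6e-07) and by 2.42 in shPRMT1. PDSS1, the partner subunit of PDSS2, rose by 0.83 and 0.62.

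The same 3 lists were read between shPRMT1 and shScramble. Untreated, 2 were higher and 2 lower of the fatty acid list, 0 higher and 1 lower of the sterol list, and 0 of the isoprenoid list were called, with 0 at an unadjusted p under 0.05, where 4.41% of all tested genes were higher and 3.83% lower. Under cisplatin the counts were 2 higher and 6 lower (8.33% and 25% of the list), 4 higher and 2 lower (18.2% and 9.09%), and 1 higher and 1 lower (6.25% each), where 10.4% of all tested genes were higher and 9.36% lower. The difference between cisplatin responses was called for MYLIP and for no other gene of the 3 lists, where 2.08% of all tested genes were called higher and 3.11% lower.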

How the data were processed

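The authors deposited linear RPKM values for 57820 genes in 16 libraries (1 column per library, per the file headers), with coordinates on GRCh37. HISAT2 and DESeq2 appear in the submitters' processing notes, with neither version nor role. The treatment of duplicate reads is not given in the sources used here; the highest reads per base of genes over 500 bases were 1.75 to 1.84 in every library, and those of the 31 genes reached 1.01. Whether duplicates were collapsed, which would compress the values and differences of high genes such as ACLY, was not tested.

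Low RPKM values fell on steps that gave whole reads (within 0.01) for 40649 of 40649 genes with any value, and hence library totals of 12289300 to 16039735 reads. Values were tested as log2(RPKM + 1), which understates changes of low genes, with limma 3.58.1 (trended prior) in R 4.3.3 over 18149 genes with at least 1 RPKM in 2 libraries. A single model of 8 group means took in the 16 libraries, and p-values were adjusted by Benjamini-Hochberg over all tested genes in each comparison. The procedure was also run on simulated data. Those data held no difference between replicate numbers, so that run cannot speak to the replicate split seen here. The unit was RPKM, so count models served only as an alternative (voom on recovered reads).

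Differences between replicates correlated across genes in 28 of 28 pairs of groups (0.30 to 0.70), so the replicate numbers were read as pairs. The members, gene lists and tests were chosen with earlier results of these data known. Full values are given for up to 4 called members with the largest difference in each averaged comparison and for 10 members picked for their role. Alternatives were a pseudocount of 0.1, no filter, the replicate block, only the groups compared, median-of-ratios scaling, voom, and leaving out each library. Span and GC were described over all tested genes. Some genes of these pathways are not reported here.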

Additional observations from a re-analysis of the deposited data

Results flagged for a closer look

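The cisplatin response of 3 of the 31 genes differed between shPRMT1 and shScramble cells by a direct test of that difference (limma interaction contrast, Benjamini-Hochberg over 18149 genes), where 2.08% of all tested genes were called higher and 3.11% lower. ABCA1 was lower by 1.04 on the log2 scale in the shPRMT1 response (-1.04, adjusted p = 0.003), and it fell in 6 of 6 treated and untreated shPRMT1 pairs. ACACA had a difference of -0.48 (adjusted p = 0.0497), and its response was below that of shScramble in both replicate numbers (-0.49 and -0.47). The 300 tested genes of like span had median responses of -0.59 in shScramble and -0.94 in shPRMT1. The part of span in the difference of ACACA was not tested. SCD had a difference of 0.41 (adjusted p = 0.048), with 0.39 and 0.42 within the replicate numbers. The calls of ACACA and SCD ended under median-of-ratios scaling (adjusted p = 0.057 and 0.12), which left 0 higher and 1 lower (268 and 584 of all tested genes). They also ended in 15 and 13 of the 16 fits that leave out 1 library, with an adjusted p of 0.255 for ACACA and 0.152 for SCD without the shScramble untreated replicate 2. Groups of 2 libraries were too small for a search for outlying samples.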

How the results depend on the processing

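No difference of a called gene given here changed sign under the settings tried. The median over the 31 genes did: that of the difference between responses (-0.07) was 0.04 without the shScramble untreated replicate 1, and that of shPRMT1 against shScramble untreated (-0.04) was 0.05 without the shScramble untreated replicate 2 and 0.02 without the #1 untreated replicate 1. With the replicate block the counts of the 31 genes were 2 higher and 14 lower for cisplatin in shScramble, 1 higher and 21 lower for cisplatin in shPRMT1, 4 higher and 5 lower for shPRMT1 against shScramble untreated, 5 higher and 7 lower under cisplatin, and 4 lower for the difference between responses. In the same order the counts over all 18149 tested genes went from 2815 higher and 2659 lower to 4137 and 3870, from 5510 and 4283 to 6657 and 5257, from 800 and 696 to 1939 and 1749, from 1894 and 1699 to 3287 and 3001, and from 378 and 564 to 1125 and 1412. Without the filter on low values the counts were 0 higher and 1 lower untreated, 0 higher under cisplatin, and 0 higher and 1 lower for the difference. Over the 40649 genes then tested they were 767 higher and 689 lower, 1709 higher, and 341 higher and 480 lower. With only the groups compared, 0 of the 31 genes were higher untreated and 0 under cisplatin, beside 388 and 944 of all tested genes. Median-of-ratios scaling gave 0 higher and 1 lower untreated, 0 higher under cisplatin, and 0 higher and 1 lower for the difference. Over all tested genes it gave 687 higher and 654 lower, 1410 higher, and 268 higher and 584 lower. A pseudocount of 0.1 left 0 higher for the difference, beside 325 of all tested genes. Leaving out each library in turn gave 0 higher and 3 to 5 lower for cisplatin in shScramble, 0 to 1 higher and 13 to 18 lower in shPRMT1, 0 to 2 higher and 0 to 2 lower untreated, 0 to 3 higher and 2 to 5 lower under cisplatin, and 0 to 1 higher and 1 to 2 lower for the difference. The shScramble count of 3 came without the untreated or the cisplatin replicate 2. The cause of these losses was not tested, beyond the fewer libraries in each fit. FASN, MVD and CYP51A1 had wide replicate spread, and whether 2 libraries a group could detect differences in such members was not tested.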
